A study of Mus musculus with 42 samples.

Results

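Chaperones are the proteins that help other proteins fold, and the genes described here are 38 mouse chaperone and chaperone-related genes of the heat shock and endoplasmic reticulum (ER) families. They were chosen by gene symbol, with earlier results of these data known. Each was looked up in the 4 RNA-seq tables of the series, 1 for each time point. Of the 38 genes, 15 appeared in at least 1 table and 23 in none, out of 2828 genes that appeared in any table. No chaperone gene appeared in more than 1 table.

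The tables compare Trmt61a conditional knockout (cKO) with wild type (WT) CD4 T cells from the spleens of C57BL/6 mice of 8 weeks of age. Trmt61a encodes the catalytic partner of TRMT6 in the methyltransferase that makes 1-methyladenosine at position 58 of tRNAs (m1A58). Naive CD4 T cells were studied untreated (0 h) or after 3, 6 or 48 h on plate-bound anti-CD3 at 5 µg/ml with anti-CD28 at 2 µg/ml, which stimulate the T cell receptor and its co-receptor. The groups were thus cKO and WT at each of 0, 3, 6 and 48 h, with 2 libraries in each group, or 16 of the 42 samples of the series. The labels of these libraries do not name the Cre driver. The design text names Cd4Cre, which acts throughout the T cell lineage, for other mice of the series. The labels do not say whether the 2 libraries of a group came from separate mice, so p-values cover only how far these samples spread, which can be technical variation.

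In the cytosol, HSP70 proteins bind unfolded stretches of newly made proteins, J proteins deliver clients and stimulate their ATPase, and STIP1 hands clients on to HSP90. In the ER, BiP (Hspa5) and GRP94 (Hsp90b1) do the same for secreted and membrane proteins, calreticulin and calnexin hold glycoproteins, and protein disulfide isomerases form their disulfide bonds. When unfolded protein builds up, HSF1 induces the cytosolic genes and the unfolded protein response (UPR), run by the sensors IRE1, PERK and ATF6, induces the ER genes. Activated T cells grow and make protein at a high rate, and effector cells secrete cytokines through the ER.

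A gene is called listed where it appears in a table, which holds genes with an unadjusted p under 0.05, and called where the authors' adjusted p was also under 0.05. The authors' test is not stated. A gene that is not listed has no value at that time, which is not the same as no expression or no change. Values are normalised read counts, that is, reads of a gene divided by 1 scaling factor per library. Each table was scaled separately, so levels were not compared between times. Reads in the listed genes ranged from 423873 to 4482346 per library. The knockout was visible in every table: Trmt61a was called lower in cKO at all 4 times, by -3.67, -3.28, -3.24 and -4.54 on the log2 scale at 0, 3, 6 and 48 h in the authors' deposited tables.

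At 48 h, 14 of the 38 chaperone genes (36.8%) were listed, and each of them was lower in cKO cells, though Dnaja1, Stip1 and P4hb came to lie just above 0 with size factors from the listed genes. Over all 9940 genes behind the authors' adjustment at 48 h, 11.1% were listed, 7.33% as lower. Hspa8 of the cytosol and Calr, Sdf2l1, Manf and Hsp90b1 of the ER were called lower; these 5 are 13.2% of the 38 genes, beside 1.54% of all genes called lower and 2.37% called in either direction. Because the 38 genes were chosen with earlier results of these data known, these shares are a description and not a test. The decreases were small, between 11.2% and 28.8% of the WT mean. Lower genes were in the majority over the whole table too, with 63.4% of the 1195 listed genes lower in cKO. Of the 701 listed genes whose mean value was at least that of the lowest listed chaperone, 71.5% were lower. They held 123 of the 153 genes called lower. The shares over all genes take in genes of every level, and were not matched to the level of the chaperone genes. The median log2 fold change was -0.23 for the 14 chaperone genes and -0.23 for all listed genes, which include 437 higher ones. For the 758 listed genes that were lower, as all 14 were, the median was -0.31. Few chaperone genes were listed at the earlier times, when few of all genes were. At 0 h 0 of 38 were listed, beside 1.57% of all genes, with 0.0122% called. At 3 h 0 were listed, beside 6.51% of all genes, with 1.64% called. At 6 h 1 was listed (2.63%), beside 4.29% of all genes, with 0.5% called. Counts this small do not set the 38 genes apart from all genes.

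**Figure D1:**
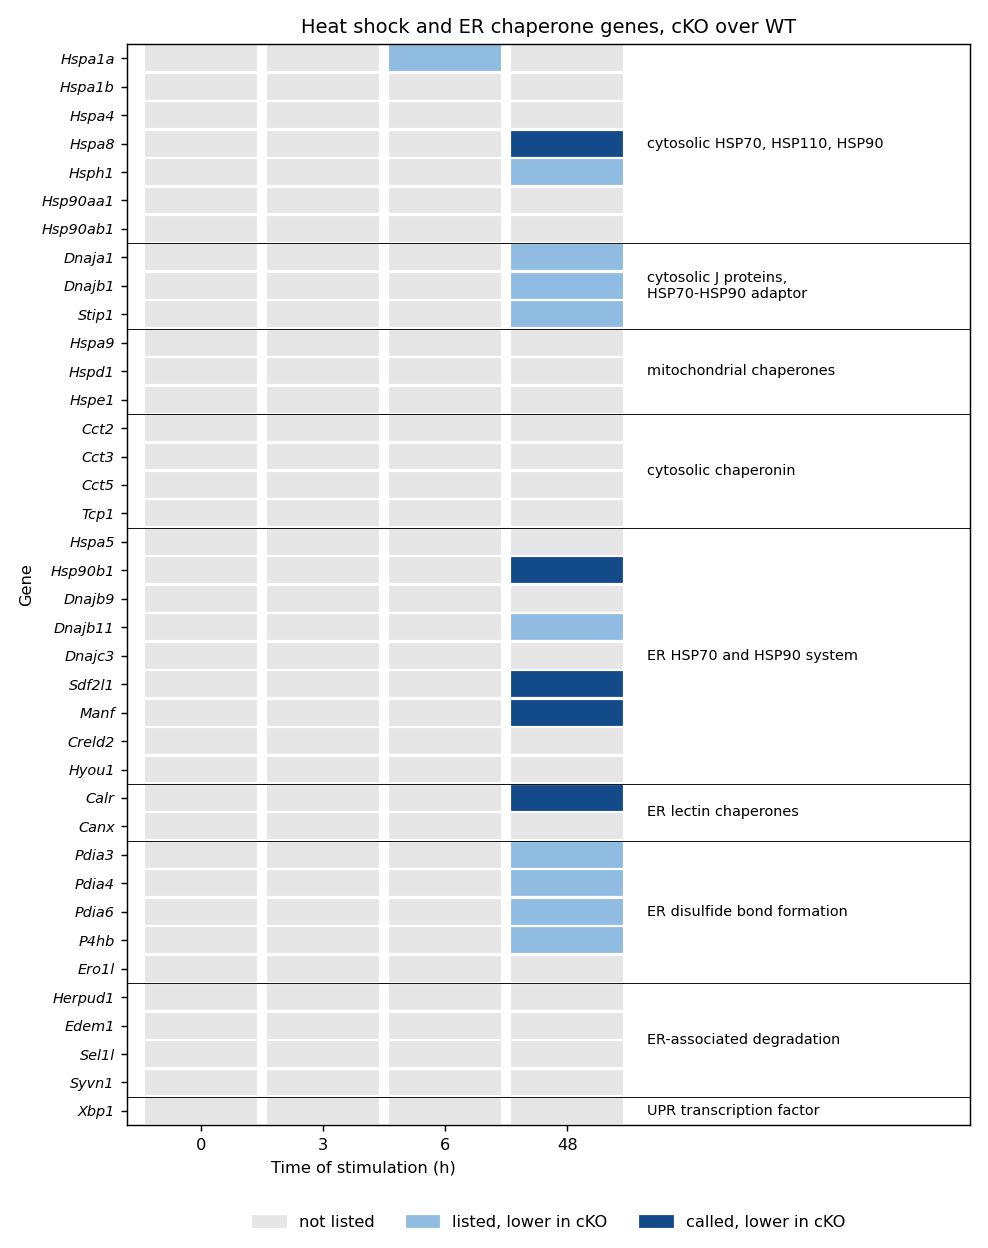
Each row is 1 of the 38 chaperone genes, grouped by role, and each column a time of stimulation in hours; colour gives whether the gene was not listed, listed as lower in cKO, or called lower in cKO in the authors' deposited table of that time. No gene was listed at 0 or 3 h, Hspa1a was listed at 6 h, and 14 genes were listed at 48 h, 5 of them called.

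Of the 10 cytosolic genes of the HSP70, HSP110, HSP90 and J protein groups, 5 were listed at 48 h and 1 was called. Hspa8 (ENSMUSG00000015656, chromosome 9, 40800984 to 40810087 on mm10, plus strand) encodes HSC70, the HSP70 that is made without stress. It stood at 52213 and 51735 in the cKO libraries, against 66215 and 63938 in the WT libraries. Both cKO libraries were below both WT libraries, and the gap between the groups was larger than the gap within either. The authors' deposited table gave a log2 fold change of -0.32 (adjusted p = 0.000468), the lowest adjusted p of the chaperone genes. DESeq2 on the reads recovered from the values gave -0.32 ± 0.063 (SE).

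The other 4 listed cytosolic genes were not called. Hsph1 encodes HSP110, which acts as a nucleotide exchange factor for HSP70, and stood at 4408 and 3980 in cKO, against 5134 and 4779 in WT libraries. Dnajb1, a J protein induced by heat shock, stood at 1473 and 1595 in cKO, against 1852 and 1803 in WT libraries. Dnaja1, another J protein, stood at 4996 and 5164 in cKO, against 5819 and 5627 in WT libraries. Stip1, the adaptor between HSP70 and HSP90, stood at 7461 and 7965 in cKO, against 8853 and 8528 in WT libraries. The groups did not overlap for any of these 4 genes, as was so for 98.8% of all genes listed at 48 h. In the authors' deposited table the adjusted p was 0.17 for Hsph1, 0.269 for Dnajb1, 0.352 for Stip1 and 0.374 for Dnaja1, with log2 fold changes between -0.25 and -0.17. The inducible HSP70 genes Hspa1a and Hspa1b, the HSP110 relative Hspa4 and both cytosolic HSP90 genes, Hsp90aa1 and Hsp90ab1, were not listed at 48 h.

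In the ER HSP70 and HSP90 system, 4 of 9 genes were listed and 3 called. Sdf2l1 (ENSMUSG00000022769, chromosome 16, 17130138 to 17132383 on mm10, minus strand) encodes an ER protein found in complex with BiP and its J protein partners. It stood at 834 and 938 in cKO, against 1201 and 1286 in WT libraries. With a log2 fold change of -0.49 in the authors' deposited table (adjusted p = 0.00999), Sdf2l1 had the most negative value of the 14 genes, and the fewest reads, from 840 in 1 cKO library to 1376 in 1 WT library. DESeq2 on the recovered reads put its standard error at 0.14.

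Manf (ENSMUSG00000032575, chromosome 9, 106838312 to 106891979 on mm10, minus strand) encodes a small protein of the ER lumen that binds BiP and is also secreted. It stood at 1635 and 1809 in cKO, against 2302 and 2232 in WT libraries. The authors' deposited table gave a log2 fold change of -0.40 (adjusted p = 0.0108). Both cKO libraries lay below both WT libraries, and the cKO libraries stood further from each other than the WT libraries did.

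Hsp90b1 (ENSMUSG00000020048, chromosome 10, 86690209 to 86705509 on mm10, minus strand) encodes GRP94, the HSP90 of the ER, on which integrins and Toll-like receptors depend for folding. It stood at 5923.6 and 5924.1 in cKO, against 7279 and 7153 in WT libraries. The cKO libraries were nearly equal and both lay below the WT libraries. The authors' deposited table gave -0.28 on the log2 scale (adjusted p = 0.0161), the highest adjusted p among the called chaperone genes. Dnajb11, a BiP partner of the J protein family, stood at 1728 and 1874 in cKO, against 2072 and 2132 in WT libraries, and was listed but not called (adjusted p = 0.358 in the authors' deposited table). BiP itself (Hspa5) was not listed, nor were its exchange factor Hyou1, the J proteins Dnajb9 and Dnajc3, or Creld2.

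Of the pair of ER lectin chaperones, Calr was called and Canx was not listed. Calr (ENSMUSG00000003814, chromosome 8, 84841850 to 84846934 on mm10, minus strand) encodes calreticulin, the soluble lectin of the ER, which also stores calcium. It stood at 12282 and 12918 in cKO, against 15388 and 15758 in WT libraries. The groups did not overlap, and the authors' deposited table gave a log2 fold change of -0.31 (adjusted p = 0.00451). DESeq2 on the recovered reads gave -0.31 ± 0.070 (SE).

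Of the 5 genes of disulfide bond formation, 4 were listed and none called by the authors' test. Pdia3, the disulfide isomerase that works with calreticulin and calnexin, stood at 7199.8 and 7464 in cKO, against 8394 and 8669 in WT libraries. Its adjusted p of 0.122 in the authors' deposited table was the lowest among the chaperone genes that were not called. P4hb, the founding protein disulfide isomerase, stood at 7927 and 7997 in cKO, against 9115 and 8886 in WT libraries. Pdia6 stood at 3559.7 and 3452 in cKO, against 3954 and 4059 in WT libraries, and Pdia4 at 1859 and 2049 in cKO, against 2272 and 2255 in WT libraries. These 4 isomerases had log2 fold changes between -0.22 and -0.18 in the authors' deposited table, a narrower range than the -0.49 to -0.22 of the 4 listed genes of the ER HSP70 and HSP90 system. Ero1l, the oxidase that recharges the isomerases, was not listed.

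**Figure D2:**
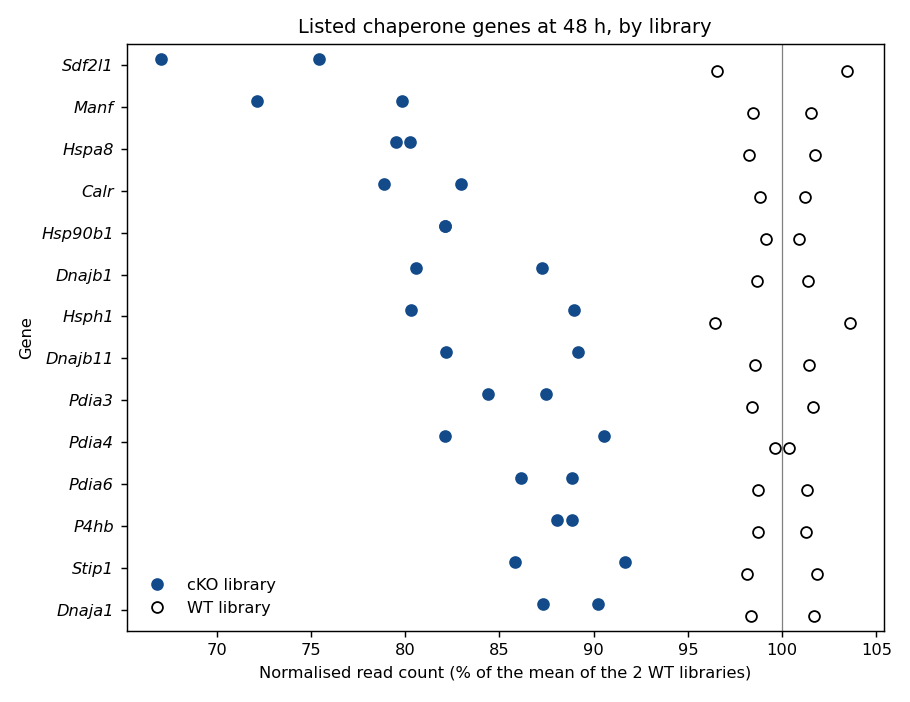
Normalised read counts of the 14 chaperone genes listed at 48 h, each as a percentage of the mean of the 2 WT libraries; filled points are the 2 cKO libraries and open points the 2 WT libraries. Under the scaling of the deposited tables both cKO points of every gene lie left of both WT points, from 67.0% of the WT mean for Sdf2l1 to 91.6% for Stip1.

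For all 14 genes the cKO and WT libraries did not overlap, as was so for 98.8% of all genes listed at 48 h. Summed over the 14 genes, the values came to 113498 and 114863 in cKO, against 139850 and 137106 in WT libraries, a ratio of 0.825. Hspa8 makes up much of that sum, and without it the ratio was 0.847. The 9 ER genes summed to a ratio of 0.837 and the 5 cytosolic genes to 0.817, or 0.874 for the 4 cytosolic genes other than Hspa8. Since every gene in these sums was listed as lower, sums below WT follow from that selection. Fewer cells of a kind and less RNA per cell cannot be told apart in these bulk libraries.

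Per kilobase of gene length, as the tables give it, Hspa8 had the highest normalised level of the 14 genes, at 12084 in cKO and 15131 in WT cells. Calr followed at 4375 and 5407 (cKO and WT means), Stip1 at 3549 and 3999, P4hb at 2783 and 3146 and Pdia3 at 2336 and 2718. Dnajb1 and Manf stood at the low end, at 479 and 489 in cKO, against 570.4 and 643 in WT cells. The called genes thus lay at both ends of this order of levels.

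The calls changed with the scaling and when any 1 library was left out. DESeq2 on the recovered reads with the scaling of the deposited tables called 5 genes, the same 5 as the authors. With size factors estimated from the listed genes alone, the log2 fold changes moved up by 0.19, none of the 14 genes was called, 11 remained below 0 and 3 (Dnaja1, Stip1 and P4hb) came to lie just above 0. That scaling centres the genes selected for a difference. Under it Sdf2l1 had -0.30 ± 0.14, Manf -0.21 ± 0.11 and Hspa8 -0.13 ± 0.061 (SE). With the deposited scaling, DESeq2 called 1 gene (Hspa8) without cKO library 1, 3 (Calr, Hspa8 and Manf) without cKO library 2, 0 without WT library 1 and 0 without WT library 2, where 6 and 5 of the 14 kept an unadjusted p under 0.05. Each of these 4 fits leaves 1 library in a group. A lost call thus does not show that the call rested on the library left out. Over the 4 fits the log2 fold change ran from -0.35 to -0.30 for Hspa8 and from -0.34 to -0.27 for Calr. It ran from -0.30 to -0.27 for Hsp90b1, -0.47 to -0.33 for Manf and -0.58 to -0.41 for Sdf2l1. The edgeR quasi-likelihood test called 0 genes, with all 14 at an unadjusted p under 0.05, beside 1136 of all 1195 listed genes. Limma on log2(value + 1) called 0, with 10 of the 14 at such a p, beside 874 of the 1195. All genes fitted had been selected at an unadjusted p under 0.05. The counts of unadjusted p given here are thus no added support for the 14 genes.

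**Figure D3:**
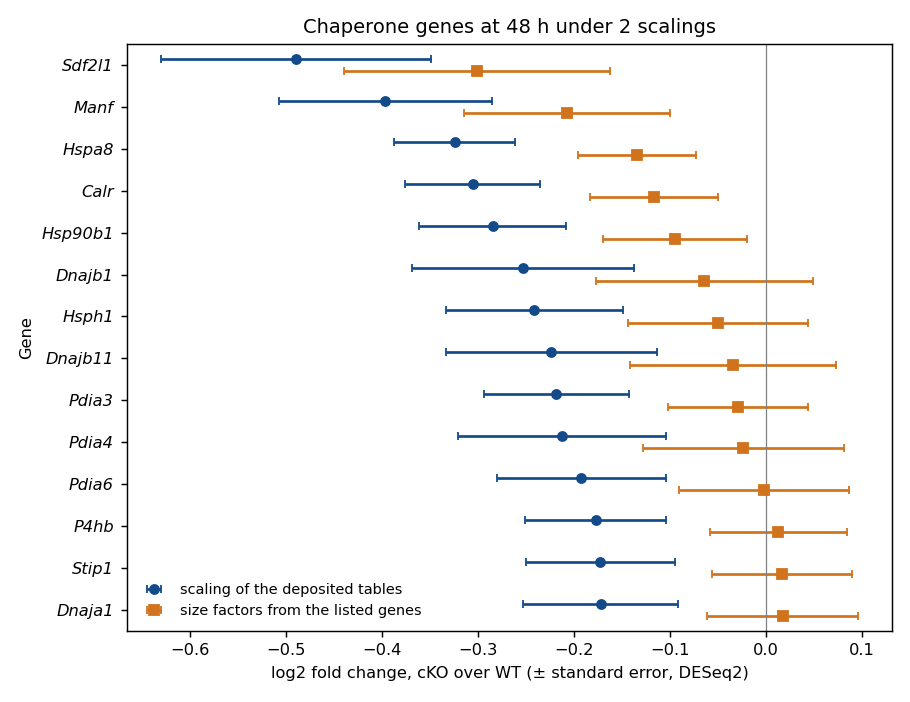
The log2 fold change of cKO over WT at 48 h for the 14 listed chaperone genes, with the standard error of DESeq2 on recovered reads; circles use the scaling of the deposited tables and squares use size factors estimated from the listed genes. Every circle lies below 0, from -0.49 for Sdf2l1 to -0.17 for Dnaja1, whereas the squares run from -0.30 to 0.02.

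Among all genes listed at 48 h the 14 showed changes of modest size. Their median absolute log2 fold change was 0.23, beside 0.33 over all genes listed at 48 h and 0.27 over the 701 listed genes of at least their lowest level. Their median value of 4988 was above the 1460 of all listed genes.

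**Figure D4:**
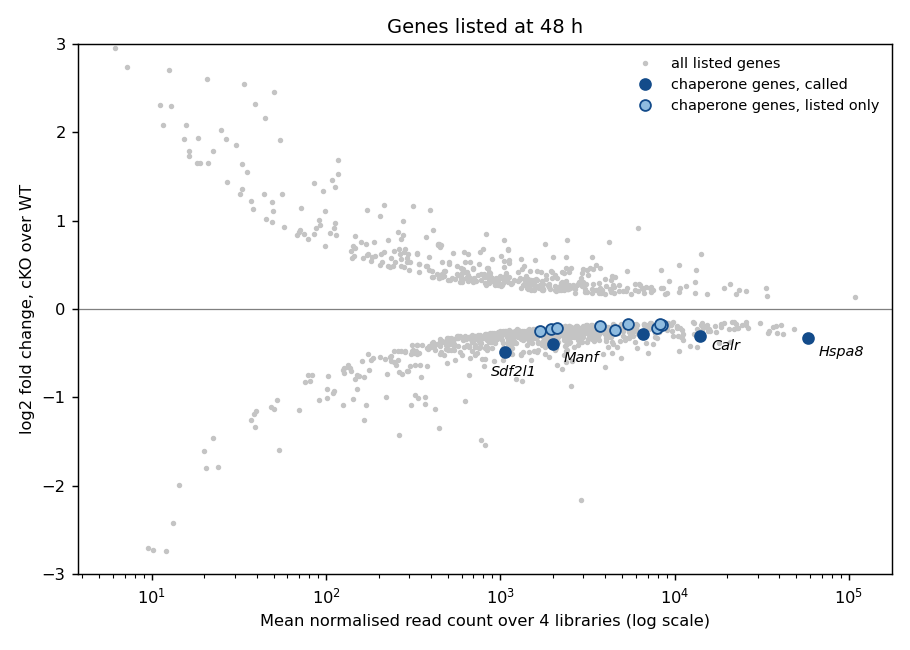
Genes listed at 48 h by mean normalised read count over the 4 libraries (log scale) and log2 fold change of cKO over WT; grey points are all listed genes, dark points the 5 called chaperone genes and light points the 9 that were listed only. Of 1195 genes 1173 lie in the range shown, and the chaperone genes lie along the lower band between -0.49 and -0.17.

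Markers of other cell types were read in the same 48 h table. Of 13 T cell markers, 3 were listed (Cd5, Thy1 and Trac), in opposite directions. Cd5 was called higher, at 10647 and 8611 in cKO, against 7362 and 6781 in WT libraries, and Thy1 was called lower, at 9036 and 10678 in cKO, against 12426 and 12661 in WT libraries. Trac stood at 5543 and 4713 in cKO, against 4201 and 4726 in WT libraries, and was not called. Cd4 and Cd3e were not listed, so the tables give no level for them. Plasma cells are rich in ER chaperones, and of 17 B cell and plasma cell markers only Irf4, which activated T cells also express, was listed, at 24625 and 25562 in cKO, against 21262 and 21870 in WT libraries. Immunoglobulin segments had 3 listed genes, with sums of 43.7 and 192 in cKO, against 61.1 and 34.9 in WT libraries. These went in opposite directions, with Ighg2c and Ighg2b higher in cKO and Ighe lower. All of them had low values and none was called. None of 35 pancreatic acinar or 11 erythroid and platelet markers was listed at 48 h. Of 28 submandibular gland markers 1 was listed (Bpifa2, at 15.9 and 55.2 in cKO, against 4.36 and 7.39 in WT libraries), and of 16 monocyte and macrophage markers 1 (Apoe, at 269 and 273 in cKO, against 199 and 191 in WT libraries). Of 13 genes that mark gamma-delta T, CD8 T or NK cells, 2 were listed. Eomes was called lower, at 944 and 973 in cKO, against 1481 and 1242 in WT libraries, and Tcrg-C2, which was not called, stood at 9.92 and 48.7 in cKO, against 7.85 and 7.39 in WT libraries. The part of these in the chaperone values was not tested.

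The remaining chaperone groups were not listed at any time. These were the mitochondrial chaperones Hspa9, Hspd1 and Hspe1, the cytosolic chaperonin genes Cct2, Cct3, Cct5 and Tcp1, whose ring folds actin and tubulin, and the ER-associated degradation genes Herpud1, Edem1, Sel1l and Syvn1, which retire misfolded proteins from the ER. Xbp1, the transcription factor spliced by IRE1, was not listed either, and gene counts do not separate its spliced form.

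The 250 bases before and 50 after each gene's start, from RefSeq on GRCm38.p6, were searched on both strands for elements known from stress responses. Such a window was available for 32 of the 38 genes. Hspa8, Hspa9, Hsp90aa1, Hsp90ab1, Manf and Hyou1 had none and were not searched. Hspa8 and Manf were among the called genes. The ER stress element, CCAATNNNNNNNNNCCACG, is bound by NF-Y and ATF6. It was present in 8 of the 32 chaperone genes (25.0%) and in 0.137% of all 27025 genes with a window. By the 48 h table, 3 of 12 listed genes with a window held it (Calr, Hsp90b1 and Pdia6), as did 5 of 20 genes that were not listed (Hspa5, Canx, Creld2, Dnajc3 and Syvn1). The stretches of the 3 listed genes are shown with those of Hspa5 and Canx, which carry the same element and were not listed, to let the element and its surroundings be compared. They are written 5′ to 3′ on the gene's own strand, with the element in capitals; CGTGG marks a match on the other strand. The positions are chr8:84847055-84847113 (minus strand) for Calr, chr10:86705513-86705676 (minus) for Hsp90b1, chr12:17266471-17266529 (plus) for Pdia6, chr2:34772005-34772063 (plus) for Hspa5 and chr11:50325780-50325838 (minus) for Canx.
Calr: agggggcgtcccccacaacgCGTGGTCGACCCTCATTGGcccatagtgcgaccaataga
Hsp90b1: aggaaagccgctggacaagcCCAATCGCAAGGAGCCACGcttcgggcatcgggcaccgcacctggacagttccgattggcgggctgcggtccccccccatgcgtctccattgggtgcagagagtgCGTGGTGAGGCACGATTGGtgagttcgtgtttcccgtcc
Pdia6: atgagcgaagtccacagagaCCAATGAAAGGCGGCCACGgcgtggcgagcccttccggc
Hspa5: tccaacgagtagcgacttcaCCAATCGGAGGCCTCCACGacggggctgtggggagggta
Canx: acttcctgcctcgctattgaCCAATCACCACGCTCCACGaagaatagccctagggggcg

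Hsp90b1 held 2 matches on opposite strands. The shorter ER stress element II, ATTGGNCCACG, was present in Dnajb11, which was listed, and in Herpud1, which was not, and in 0.0444% of all genes. The heat shock element searched, GAANNTTCNNGAA, is 3 units of the site that HSF1 binds. It was present in Hsph1, which was listed, and in Hspd1 and Hspe1, which were not, and in 0.662% of all genes. The matches of Dnajb11 and Hsph1 lie after the gene's start and are not shown. Hspd1 and Hspe1 lie head to head and share 1 stretch (chr1:55088039-55088096), shown on the strand of Hspd1 because neither gene was listed although it holds 2 overlapping matches.
Hspd1: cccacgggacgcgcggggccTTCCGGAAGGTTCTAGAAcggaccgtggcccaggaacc
The unfolded protein response element, TGACGTGG, was in no window of the 32 genes and in 0.714% of all genes. A match is a description of letters and not of binding.

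The only chaperone gene listed before 48 h was Hspa1a at 6 h (ENSMUSG00000091971, chromosome 17, 34969190 to 34972156 on mm10, minus strand), which encodes an inducible HSP70. It stood at 132 and 212 in cKO, against 136 and 948 in WT libraries. One WT library was high and the other lay between the cKO libraries, so the groups overlapped. The authors' deposited table gave a log2 fold change of -1.66 (p = 0.0229, adjusted p = 0.836). At 6 h the groups of 93.4% of all listed genes did not overlap, and 0.5% of all genes were called. DESeq2 on the recovered reads without WT library 2 gave 0.34, the opposite sign, so the difference rests on that library. The 6 h libraries also differed in markers of other tissues: 16 of 28 submandibular gland markers summed to 27.8 and 36.4 in cKO, against 2790 and 230 in WT libraries, and 21 of 35 pancreatic acinar markers to 249 and 2336 in cKO, against 25.0 and 80.3 in WT libraries. WT library 2, the one with high Hspa1a, was not the highest in either sum. It was the highest in immunoglobulin segments, whose 20 listed genes summed to 1145 and 1569 in cKO, against 3320 and 5514 in WT libraries. The 2 listed B cell and plasma cell markers (Blnk and Igkc) summed to 887 and 1205 in cKO, against 2808 and 3290 in WT libraries. The platelet marker Ppbp stood at 405 and 433 in cKO, against 851 and 944 in WT libraries. Ccr2, of the monocyte and macrophage list, stood at 349 and 265 in cKO, against 175 and 59.6 in WT libraries. The 3 listed markers of CD8 T, NK and gamma-delta T cells summed to 782 and 744 in cKO, against 303 and 283 in WT libraries. Their part in the Hspa1a values was not tested. Hspa1b, a near-identical neighbouring copy, was not listed. The 250 bases before the starts of Hspa1a and Hspa1b differed at 3 positions in RefSeq, and reads could be split between the copies, so the value of either is uncertain.

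Other genes of the same pathways were taken from 7 lists that hold 174 genes and none of the 38. At 48 h, 28 of them were listed (21 lower, 7 higher), with a median log2 fold change of -0.20. Beside these counts, 11.1% of all genes were listed at 48 h, and 63.4% of all listed genes were lower. With size factors from the listed genes the split was 15 lower and 13 higher, since Cdc37, Ssr1, Spcs2, Ddost, Rpn1 and Vcp came to lie just above 0. None was called lower and 2 were called higher, Ddit3 and Lonp1, beside 0.835% of all genes called higher at 48 h. Ddit3 encodes CHOP, a transcription factor induced by the PERK arm of the UPR and by the integrated stress response. It stood at 1016 and 1123 in cKO, against 611 and 579 in WT libraries, with a log2 fold change of 0.85 in the authors' deposited table (adjusted p = 8.64e-07). Lonp1, a protease of the mitochondrial matrix, stood at 7157 and 6801 in cKO, against 5860 and 5664 in WT libraries, with a log2 fold change of 0.28 in the authors' deposited table (adjusted p = 0.0298). Both cKO libraries were above both WT libraries for each gene. DESeq2 on the recovered reads called Ddit3 alone without cKO library 1, both genes without cKO library 2, and neither without WT library 1 or without WT library 2.

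Of 16 UPR sensors and factors 4 were listed at 48 h, all higher in cKO and 1 called, and the other 12 have no value there. Besides Ddit3 these were Ppp1r15a, a phosphatase subunit induced downstream of PERK (0.41), Trib3 (0.32) and the sensor Atf6 (0.28), named after their values were seen and given as log2 fold changes in the authors' deposited table; none of the 3 was called there. With size factors from the listed genes, all 4 were called higher. Of 33 genes of ER translocation and export 6 were listed, all lower with log2 fold changes between -0.27 and -0.18 (Ssr1 and Spcs2 above 0 under the other scaling), and of 34 other ER folding, disulfide and glycan genes 4 were listed, all lower, between -0.47 and -0.18 (Ddost and Rpn1 above 0 under the other scaling). Other chaperonin and prefoldin genes had 3 of 12 listed as lower, between -0.30 and -0.24, all of them prefoldin subunits. Other cytosolic heat shock genes had 7 of 40 listed, 6 of them lower (Cdc37 above 0 under the other scaling), and other ER-associated degradation genes 1 of 26, Vcp, also lower (above 0 under the other scaling). Of 13 other mitochondrial chaperone and protease genes 3 were listed, with Lonp1 and Dnaja3 higher and Grpel1 lower. Beside the counts of each list, 11.1% of all genes were listed at 48 h, and 63.4% of all listed genes were lower. Counts this small do not set a list apart from all genes, and no difference between these lists was tested.

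**Figure D5:**
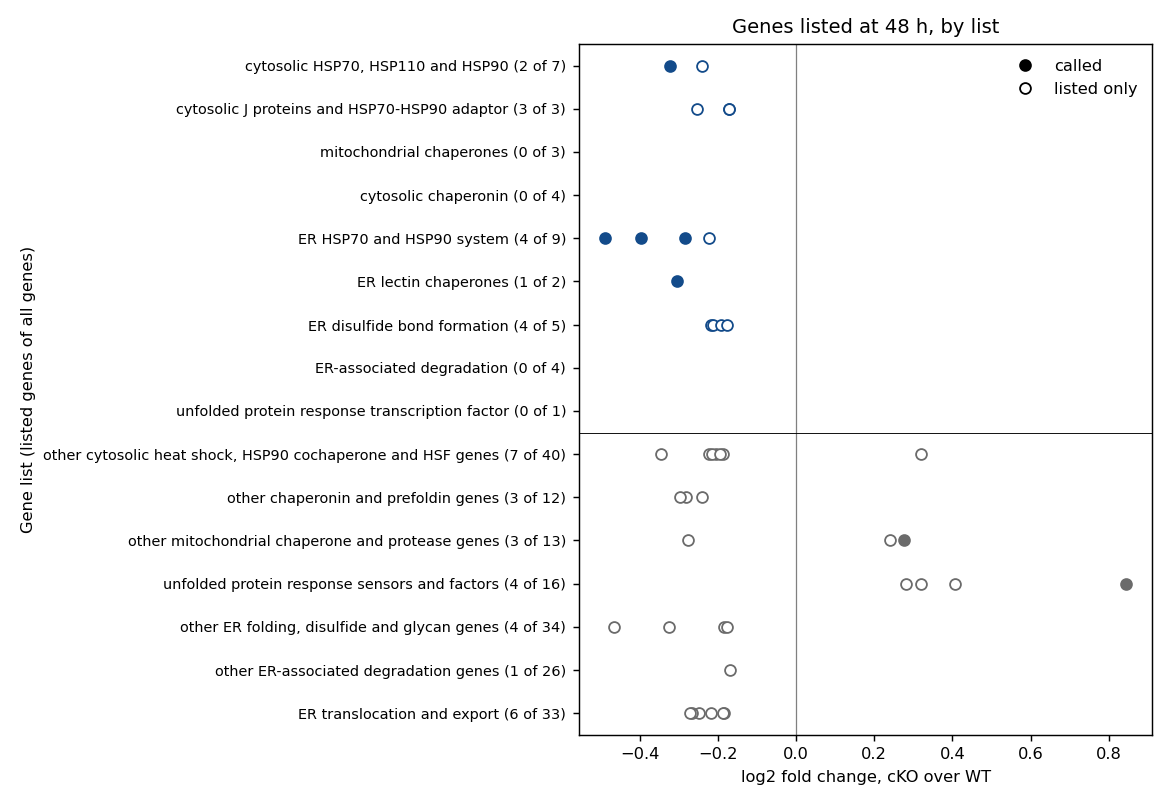
The log2 fold change of cKO over WT in the authors' deposited table of 48 h for each listed gene, by list, with the chaperone genes by role above the line and the other pathway lists below it; numbers after each name give listed genes of all genes, filled points called genes and open points genes listed only. Under the scaling of the deposited tables all chaperone genes lie left of 0, and the 4 listed UPR sensors and factors lie right of it, up to 0.85 for Ddit3.

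Before 48 h few of the 174 pathway genes were listed: 1 at 0 h (the cochaperone ligase Stub1, lower), 8 at 3 h (6 higher, 2 lower) and 0 at 6 h. Of all genes, 1.57%, 6.51% and 4.29% were listed at 0, 3 and 6 h. Among the pathway genes listed before 48 h only Ern1 was called. Ern1 encodes IRE1, the sensor that splices Xbp1 mRNA, and at 3 h it stood at 1650 and 1327 in cKO, against 858 and 859 in WT libraries. The authors' deposited table gave a log2 fold change of 0.79 (adjusted p = 0.00268; 1.14% of all genes were called higher at 3 h), but DESeq2 on the recovered reads did not call it (adjusted p = 0.0883). At 3 h the gene of the PERK sensor, Eif2ak3, stood at 1001 and 1410 in cKO, against 1976 and 1908 in WT libraries, and was not called (adjusted p = 0.0728 in the authors' deposited table). Markers of other cells differed between the 3 h libraries in both directions. The 27 listed acinar markers of 35 summed to 1694 and 11271 in cKO, against 89.0 and 192 in WT libraries, and the 17 listed submandibular gland markers of 28 to 35.2 and 41.0 in cKO, against 11222 and 940 in WT libraries. Immunoglobulin segments, with 30 listed, summed to 356 and 403 in cKO, against 662 and 3517 in WT libraries. The 6 listed markers of CD8 T, NK and gamma-delta T cells, of 13, summed to 1702 and 1742 in cKO, against 752 and 604 in WT libraries, with Ccl5 and Eomes called higher. Monocyte and macrophage markers had 2 of 16 listed, Ccr2 (called higher) and Cst3, with sums of 1785 and 1193 in cKO, against 647 and 802 in WT libraries. B cell and plasma cell markers had 3 of 17 listed, Irf4 and Prdm1 as higher and Mzb1 called lower. The part of these in the values of Ern1 and Eif2ak3 was not tested.

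Pathway genes listed at 2 times allowed a test of whether the knockout effect differed between the times, by limma on log2(value + 1) with a genotype by time term. Stub1 (48 h against 0 h), Atf6 and Lonp1 (48 h against 3 h) gave adjusted p-values of 0.604, 0.651 and 0.845 over all genes listed at both times. Such genes were selected for a difference at each time, so these values do not show that the effects were equal. No chaperone gene of the 38 could be tested in this way, so the absence of the 14 genes from the earlier tables is not shown to be a difference between times.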

How the data were processed

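RNA-seq libraries were made with a strand-specific kit, per the labels' protocols. The submitters' processing notes list HISAT2 2.0.5, Bowtie2 2.4.1, Trim Galore 0.6.6, featureCounts 1.5.0-p3 and the build mm10, with no role for any. The authors deposited, per time point, a signal for each library (reads divided by 1 scaling factor), log2 fold changes with cKO above WT in the ratio, and a p-value with its adjusted p-value; the test is not stated in the sources used here. The deposited tables hold genes with an unadjusted p under 0.05 only.

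In each of the 16 library columns the values came out as whole numbers of 1 step (tolerance 0.01), which gave back reads and scaling factors. The numbers of genes behind the authors' adjustment, recovered from the p-values, were 24502, 15399, 16602 and 9940 at 0, 3, 6 and 48 h. Listed genes without such an adjusted p (93 at 48 h) stayed uncalled. As alternatives, limma 3.58.1, edgeR 4.0.16 (quasi-likelihood) and DESeq2 1.42.0 in R 4.3.3 were fitted over all listed genes, with Benjamini-Hochberg adjustment for those numbers. An automatic reading of the steps could not be made for some columns, so these fits remain alternatives.

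The 38 genes and all lists were chosen with earlier results of these data known. Every listed member is named, and of the pathway lists up to 4 called genes per time with the lowest adjusted p; others named were chosen after their values were seen. A planned protein comparison was not made. WT libraries of 18 h and the other assays were not analysed here.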

Additional observations from a re-analysis of the deposited data

How the results depend on the processing

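The tables hold selected genes, so fits over them estimate spread from genes already past an unadjusted threshold, and scaling from them assumes that these balance. Against 5 chaperone genes called at 48 h, limma called 0 in each form (log2(value + 1), log2(value + 10), a mean value of at least 10, and the replicate block), edgeR 0 and DESeq2 with size factors from the listed genes 0; leaving out single libraries gave 0 to 3. Against 2 pathway genes called at 48 h these gave 0, 0, 0, 0, 0 and 7, and leave-one-out 0 to 2; against 1 at 3 h every alternative gave 0. With DESeq2 the sign reversed for Hspa1a at 6 h without WT replicate 2 (0.34) and, under listed-gene size factors, for P4hb (0.013), Stip1 (0.017) and Dnaja1 (0.018). For the 5 called chaperone genes, 9 of 55 recomputed values kept the call and 46 lost it, all with the same direction; for the 10 that were never called, 106 of 110 kept the direction and 4 reversed.

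Over all genes the authors called 3, 253, 83 and 236 at 0, 3, 6 and 48 h. Counts were 0, 0, 0 and 6 by limma on log2(value + 1), 0, 0, 0 and 2 with a pseudocount of 10, 5, 0, 0 and 3 with a mean value of at least 10, 6, 0, 0 and 7 by edgeR, 3, 137, 29 and 206 by DESeq2, and 4, 118, 25 and 317 by DESeq2 with listed-gene size factors. Without cKO replicate 1, cKO replicate 2, WT replicate 1 and WT replicate 2 in turn, DESeq2 called 79, 2, 1 and 7 at 0 h, 41, 70, 80 and 81 at 3 h, 7, 41, 17 and 11 at 6 h, and 51, 205, 13 and 21 at 48 h. The cause of these differences was not tested. With the replicate number as a block, limma called 5, 0, 48 and 1 genes; deviations of same-numbered libraries correlated at 0.04, -0.09, 0.03 and 0.13, with only 2 pairs, so the numbers were not taken as pairs. Differences between times ranged over leave-one-out from -0.61 to 0.13 for Atf6, -0.23 to 0.10 for Lonp1 (0.0098 without WT replicate 1 of 3 h) and 0.05 to 1.06 for Stub1; Stub1 passed the threshold without cKO replicate 1 of 0 h (adjusted p = 0.0398).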
